A study of Mus musculus with 10 samples.

Results

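The 37 genes described here encode the machinery that carries new proteins into the endoplasmic reticulum (ER), folds them there, removes those that misfold, and reports the folding load to the nucleus. They were chosen as named genes of this machinery, with earlier results of these data known, and comprise 5 stress sensors and transcription factors, 10 chaperones and co-chaperones, 2 lectin chaperones, 5 protein disulfide isomerases, 6 genes of ER-associated degradation, and 9 genes of the translocon and signal peptidase. All 37 were found among the 34823 gene names of each library that remained without rRNA names, and all 37 were among the 13708 genes that passed the filter on low counts. The counts below therefore cover every member.

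RNA was sequenced from 5 sorted populations of live EpCAM+ cells of small intestinal crypts, with 10000 cells sorted per population and 2 libraries for each, 10 in all. The animals were EF1a-OSCAR mice of strain C57BL6/J, and every population carried the reporter. OSCAR consists of mCherry and VeN90, a green protein whose fluorescence is dimmed when the kinase CDK9 with cyclin T1 phosphorylates it, joined by a P2A peptide, knocked into Rosa26 under the EF1a promoter, with the stop cassette removed by Vasa-Cre. The populations were defined by the VeN90 to mCherry ratio (OSCAR) and by the general level of the transgene (EF1a). By label, P1 was OSCARlow EF1alow, P2 OSCARhigh EF1alow, P3 OSCARlow EF1ahigh, P4 OSCARmed EF1alow and P5 OSCARmed EF1ahigh. The age and sex of the mice, and whether populations with the same replicate number came from the same animals, are not given in the sources used here, so p-values measure only the spread between these libraries.

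The ER is the entry point of the secretory route. Proteins enter through the Sec61 channel, lose their signal peptide, are folded by chaperones such as BiP and by disulfide isomerases, and are sent back to the cytosol for destruction when folding fails. Unfolded protein in the ER activates the sensors IRE1, ATF6 and PERK, and IRE1 splices the Xbp1 mRNA to yield an active transcription factor. In the small intestine this system is known for its place in Paneth and goblet cells, which secrete antimicrobial proteins and mucins in bulk. Counts per gene cannot tell spliced from unspliced Xbp1.

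The libraries labelled P2 and P3 call for care before any result. The study places secretory cells in P3, whereas here the libraries labelled P2 carried the secretory markers. The level of each gene is given as CPM, its count divided by the library total and scaled by TMM, a factor that evens out libraries in which a few genes take many reads, so the CPM of a library have no fixed sum. Lyz1, which encodes the lysozyme of Paneth cells, was at 8983 and 28043 CPM (P1), 264451 and 183077 (P2), 1376 and 697 (P3), 184 and 369 (P4) and 4836 and 872 (P5), and the goblet cell mucin Muc2 at 254 and 429 CPM (P1), 7616 and 13496 (P2), 157 and 392 (P3), 1136 and 877 (P4) and 924 and 803 (P5). All 11 Paneth markers in the files were detected in every library, with summed CPM of 411988 to 571453 in P2 and at most 64625 elsewhere, and the 10 goblet markers summed to 52448 to 115070 in P2 and at most 9837 elsewhere. Of these goblet markers Clca1 was lower in P2, at 3.34 and 4.89 CPM, than in P4, at 19.3 and 15.0. The list also allowed the name Clca3 for it, which was among the 50 most abundant genes and was not in the sum. The 10 enteroendocrine markers summed to 4779 to 11601 CPM in P2 against at most 591 elsewhere, and the 10 enterocyte markers were highest in P1, at 45060 to 56665. The 10 leukocyte markers summed to 317 to 1088 CPM in P1 and at most 204 elsewhere, although EpCAM+ cells were sorted. The 9 plasma and B cell markers in the files were low throughout. They summed to 11.7 to 20.2 CPM in P1, 6.35 to 7.75 in P3 and 2.67 to 3.34 in P2. P4 and P5 were lower still, at 1.84 to 2.18 and 1.90 to 1.94. In P2, 7 of these markers had no count in either library. The mitochondrial share of counts was 59.2% and 36.1% for the P3 labels and 1.04% to 5.19% for the other 8 libraries. Libraries are called here by their labels throughout, and whether the labels P2 and P3 were exchanged was not tested. If they were, the libraries labelled P2 would be OSCARlow EF1ahigh and those labelled P3 OSCARhigh EF1alow, and the comparisons that place either along the OSCAR or EF1a scale would not be those named below. In bulk samples of sorted cells, more cells of a type and more RNA of a gene per cell cannot be told apart, and the part of these markers in the results below was not tested.

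Promoter sequences are shown because several of the members are textbook targets of the sensors, through short elements near the start of the gene. RefSeq promoter windows, 250 bases before to 50 after the start on GRCm38.p6, were matched by symbol for 29 of the 37 members. The ER stress element was searched on both strands as CCAAT and CCACG with 9 bases between them. It was found in the windows of 9 members, Hspa5, Hsp90b1, Dnajc3, Creld2, Calr, Canx, Pdia6, Syvn1 and Derl3, and in 37 of 27025 genes in all (0.137%). The second form of the element, ATTGG and CCACG with 1 base between them, was in Herpud1 and Dnajb11 and in 12 genes in all (0.0444%). The core of the unfolded protein response element, TGACGTGG, was in Txndc5 and in 193 genes in all (0.714%). A match of letters is a description of the window and not a measured site. Below are the 250 bases before the start of 6 members that behave differently across the populations, 5′ to 3′ on the strand of the gene, with the matched letters in capitals.
Hspa5 (chr2:34771840-34772089, plus strand): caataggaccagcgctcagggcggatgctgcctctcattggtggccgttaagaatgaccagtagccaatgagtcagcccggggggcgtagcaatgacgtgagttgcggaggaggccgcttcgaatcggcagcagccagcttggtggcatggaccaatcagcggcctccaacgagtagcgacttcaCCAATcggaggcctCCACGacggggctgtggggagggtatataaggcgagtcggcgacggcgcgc
Hsp90b1 (chr10:86705445-86705694, minus strand): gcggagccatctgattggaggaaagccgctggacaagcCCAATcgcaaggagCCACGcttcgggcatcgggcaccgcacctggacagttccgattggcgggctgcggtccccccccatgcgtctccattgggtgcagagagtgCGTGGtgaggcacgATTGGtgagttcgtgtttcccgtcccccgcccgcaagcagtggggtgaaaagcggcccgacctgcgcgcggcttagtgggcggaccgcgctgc
Canx (chr11:50325674-50325923, minus strand): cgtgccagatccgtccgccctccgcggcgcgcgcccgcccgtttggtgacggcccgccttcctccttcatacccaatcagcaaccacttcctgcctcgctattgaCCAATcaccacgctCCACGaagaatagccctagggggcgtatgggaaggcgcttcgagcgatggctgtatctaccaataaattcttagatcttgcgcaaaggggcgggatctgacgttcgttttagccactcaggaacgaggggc
Derl3 (chr10:75893148-75893397, plus strand): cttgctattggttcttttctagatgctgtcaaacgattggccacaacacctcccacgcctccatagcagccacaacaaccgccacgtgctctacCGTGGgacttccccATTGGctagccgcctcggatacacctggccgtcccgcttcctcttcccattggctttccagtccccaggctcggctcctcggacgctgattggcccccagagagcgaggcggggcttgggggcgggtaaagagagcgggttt
Herpud1 (chr8:94386179-94386428, plus strand): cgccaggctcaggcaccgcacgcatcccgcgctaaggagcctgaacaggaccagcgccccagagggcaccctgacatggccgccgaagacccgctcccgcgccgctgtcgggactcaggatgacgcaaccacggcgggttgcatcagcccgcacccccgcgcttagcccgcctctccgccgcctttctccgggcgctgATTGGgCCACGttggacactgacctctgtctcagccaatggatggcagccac
Txndc5 (chr13:38527915-38528164, minus strand): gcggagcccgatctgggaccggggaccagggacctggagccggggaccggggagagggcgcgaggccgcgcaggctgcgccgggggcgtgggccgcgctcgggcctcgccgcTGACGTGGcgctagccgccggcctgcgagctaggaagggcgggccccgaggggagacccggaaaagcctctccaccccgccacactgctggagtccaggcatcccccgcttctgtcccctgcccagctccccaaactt

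Hspa5 held its element with the first base 65 bases before the start, and Canx at 145. Hsp90b1 held 2 copies, at 212 and 107, the nearer one on the opposite strand. In Derl3 the element lay on the opposite strand, at 156.

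The members took between 0.337% and 1.06% of all counts in a library. The 2 P1 libraries were the lowest, at 0.337% and 0.377%. In the P2 libraries the share was 1.01% and 0.999%, close to the 1.06% and 0.978% of P4 and the 0.921% and 0.903% of P5, and in P3 it was 0.493% and 0.660%. This share rests on what else is in the library, since the 10 most abundant genes took 47.9% and 41.3% of the counts in P2. Without the 50 most abundant genes the members took 2.16% and 1.95% in P2 and 0.392% and 0.459% in P1. The P3, P4 and P5 libraries then lay from 1.02% to 1.31%. P1 was lowest on either denominator, whereas P2 stood above P4 only once the most abundant genes were left out.

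For this reason the scale enters each comparison of P2. The TMM factors were 0.689 and 0.708 in P2, 0.490 and 0.963 in P3, and 1.51 and 1.56 in P4. With library totals in place of TMM, the median log2 fold change over all 13708 genes was -0.66 when P2 was set against the other 4 and -1.07 for P2 against P4, where TMM gave medians of -0.00043 and 0.05. Each value below is on the TMM scale, that is relative to the bulk of genes, and library totals are given beside the counts of called genes that they change.

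Across the 5 populations, 34 of the 37 members differed (edgeR's quasi-likelihood test, adjusted p under 0.01), against 36.3% of all genes tested. The exceptions were Derl1, Dnajb11 and P4hb. For P2 against the mean of the other 4 populations, 26 members rose (16.3% of all genes rose) and 0 fell (10.7% of all genes fell), and the median log2 fold change was 1.35. For none of the 37 was a decrease seen even at an unadjusted p under 0.05 with edgeR, and DESeq2 called 32 higher (17.1% of all genes) and 0 lower. With library totals 13 members were still higher (7.97% of all genes): Xbp1, Atf6, Ern1, Ern2, Eif2ak3, Dnajb9, Dnajc3, Txndc5, Herpud1, Sel1l, Edem1, Derl3 and Sec11c. In 27 members both P2 libraries lay above all 8 others (20.2% of all genes), in 0 members below them (15% of all genes), and in 25 members both P1 libraries lay below all 8 others (13.9% of all genes).

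**Figure D1:**
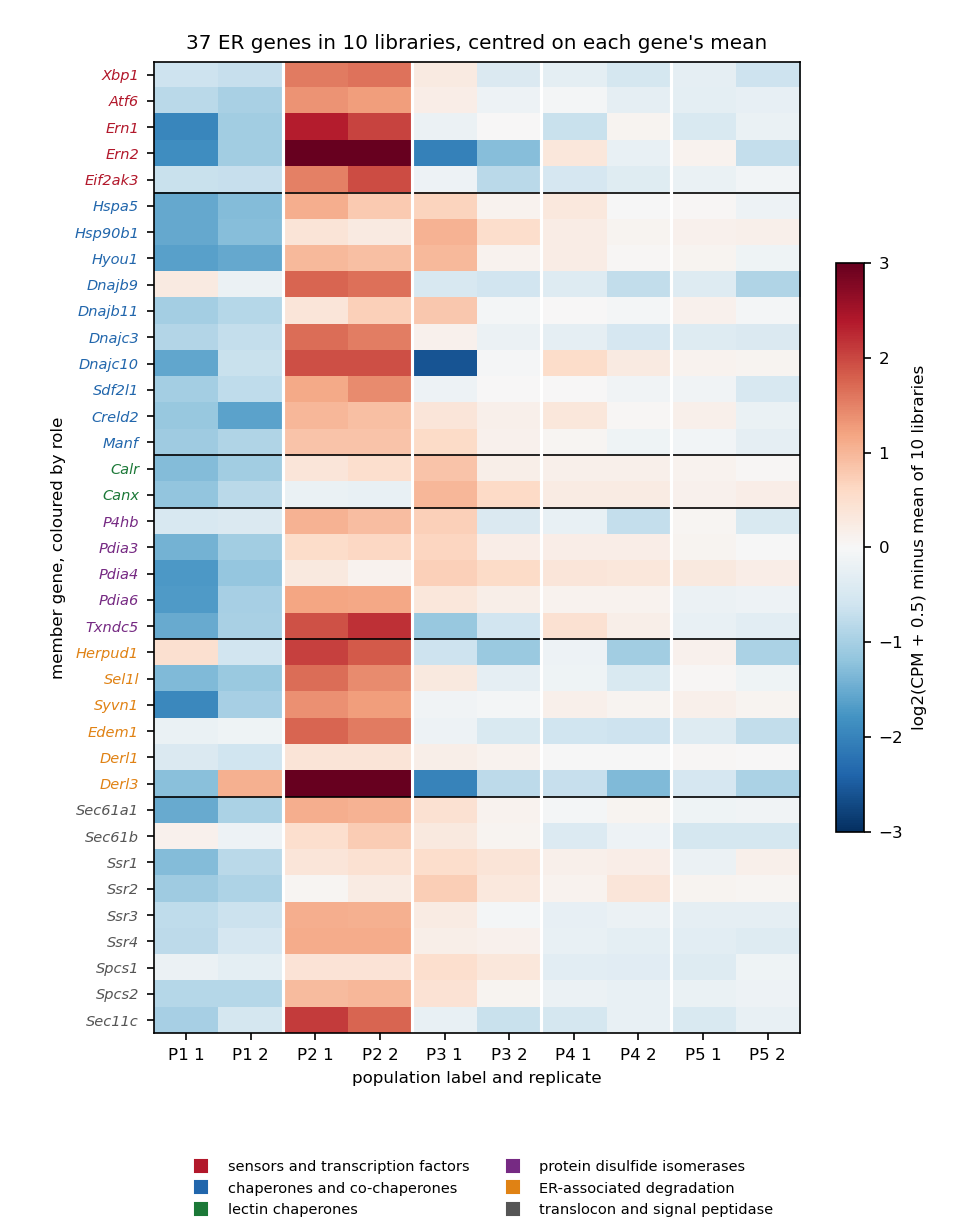
Heat map of log2(CPM + 0.5) of the 37 members (rows, coloured and grouped by role) in the 10 libraries (columns), minus the mean of each gene over the 10 libraries. The 2 P2 columns are the highest for the sensors and for most genes of ER-associated degradation, and the 2 P1 columns are the lowest for most chaperones and disulfide isomerases.

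All 5 sensors and transcription factors rose in P2, with log2 fold changes of 1.63 to 4.17 against the average of the others, and all 5 remained called with library totals. Xbp1, the transcription factor made active by IRE1 splicing, was at 129.9 and 124 CPM (P1), 590.2 and 627 (P2), 243 and 149 (P3), 164 and 138 (P4) and 166 and 131 (P5). Both P2 libraries were far above the other 8, which overlapped one another from P3 to P5. The log2 fold change of Xbp1 in P2 was 1.99 ± 0.19 (SE, adjusted p = 6.73e-05).

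Ern1, which encodes the widely expressed IRE1 alpha (chr11:106255964-106349166 on NCBIM37), was at 18.1 and 34.9 CPM (P1), 373 and 293 (P2), 64.0 and 72.8 (P3), 45.2 and 76.4 (P4) and 52.8 and 63.2 (P5). Ern2, which encodes IRE1 beta of mucosal epithelium (chr7:129313407-129329730), was at 11.2 and 20.4 CPM (P1), 506 and 370.1 (P2), 10.1 and 17.0 (P3), 53.6 and 36.1 (P4) and 45.4 and 25.7 (P5). Both rose in P2 against the average of the others, by 2.73 ± 0.23 (SE, adjusted p = 3.7e-05) for Ern1 and 4.17 ± 0.26 (SE, adjusted p = 1.12e-05) for Ern2 on the log2 scale. Ern2 was the member with the second largest fold change after Derl3. Per kilobase of exon, Ern2 stood at 3.73 and 3.47 times Ern1 in P2 and at 0.432 and 0.643 times in P3, so that the order of both genes was opposite in these populations. The P1 libraries stood at 1.70 and 1.60, those of P4 at 3.26 and 1.30 and those of P5 at 2.36 and 1.12, and the P2 libraries were thus close to 1 library of P4.

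Eif2ak3, which encodes PERK, was at 18.9 and 18.7 CPM (P1), 88.2 and 119 (P2), 27.5 and 17.0 (P3), 21.4 and 23.6 (P4) and 26.3 and 28.5 (P5), and Atf6, the sensor that is cleaved in the Golgi to a transcription factor, at 43.8 and 38.9 CPM (P1), 197 and 184 (P2), 88.9 and 69.7 (P3), 74.2 and 64.1 (P4) and 62.8 and 64.7 (P5). The fold changes in P2 against the average of the others were 2.21 ± 0.18 (SE, adjusted p = 2.89e-05) and 1.63 ± 0.14 (SE, adjusted p = 3.54e-05). For both genes the P2 libraries did not overlap with the other 8.

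**Figure D2:**
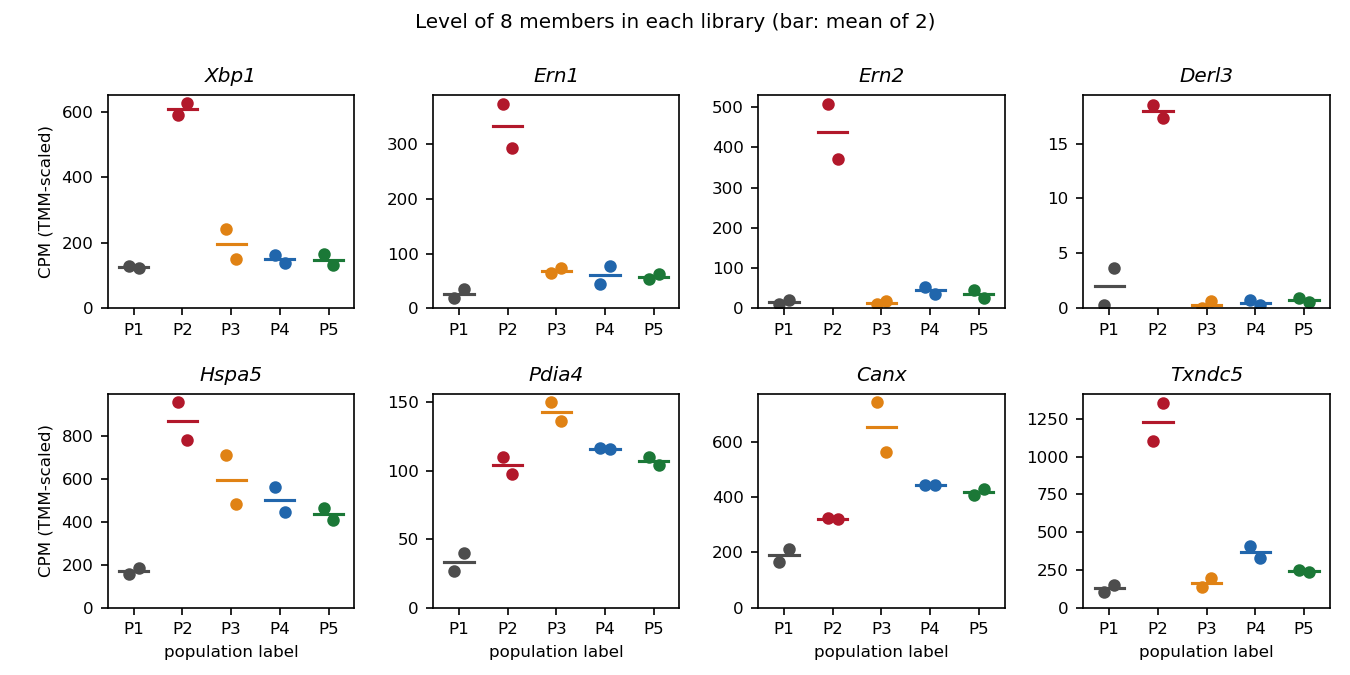
TMM-scaled CPM of 8 members in each library by population label (points; bars are the mean of 2 libraries, y axes from 0). Xbp1, Ern1, Ern2, Derl3 and Txndc5 are highest in P2, Hspa5 and Pdia4 are lowest in P1, and Canx is higher in P3 than in P2.

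Of the 10 chaperones and co-chaperones, 8 rose in P2 against the average of the others, but only Dnajb9 and Dnajc3 remained called with library totals. Hspa5, which encodes BiP, the main Hsp70 chaperone of the ER, was at 155 and 183 CPM (P1), 955 and 778 (P2), 709.9 and 481 (P3), 560.2 and 443 (P4) and 463 and 408 (P5). P2 was highest and P1 lowest, and P3, P4 and P5 lay between them. The log2 fold change in P2 was 1.17 ± 0.21 (SE, adjusted p = 0.00199), and without P2 replicate 1 it no longer passed the threshold, at an edgeR adjusted p of 0.0301. Hsp90b1, which encodes the Hsp90 of the ER (GRP94), was at 164 and 194 CPM (P1), 620.0 and 568 (P2), 981 and 680.4 (P3), 552 and 500.2 (P4) and 514 and 529 (P5), with P3 highest on the TMM scale. With library totals Hsp90b1 in P3 against P5 was at -0.39, where the median of all genes was -0.94. The change of Hsp90b1 in P2 was 0.40 ± 0.20 (SE, adjusted p = 0.143), and it turned to -0.24 with library totals.

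The J proteins that work with BiP differed among themselves. Dnajb9 (ERdj4), a J protein that acts in degradation and holds IRE1 in check, was at 24.3 and 17.7 CPM (P1), 68.7 and 64.7 (P2), 14.3 and 13.3 (P3), 15.3 and 12 (P4) and 15.3 and 10.6 (P5), and Dnajc3 (p58IPK), known as a brake on PERK, at 70.3 and 78.6 CPM (P1), 412 and 377 (P2), 141 and 115 (P3), 106 and 91.6 (P4) and 99.4 and 94.8 (P5). In both genes the P2 libraries lay above the other 8, with log2 fold changes of 2.15 ± 0.19 (SE, adjusted p = 4.69e-05) and 2.01 ± 0.14 (SE, adjusted p = 1.66e-05). Dnajc10 (ERdj5), a reductase with a J domain, was at 23.0 and 43.0 CPM (P1), 264 and 264 (P2), 11.1 and 67.3 (P3), 101 and 83.2 (P4) and 73.7 and 73.6 (P5). Its replicates in P3 differed by far more than those of any other population, and its change in P2 was 2.26 ± 0.40 (SE, adjusted p = 0.00192). That call was lost without either P2 library. Dnajb11 (ERdj3), which delivers clients to BiP, was at 34.5 and 39.2 CPM (P1), 90.6 and 117 (P2), 124 and 68.4 (P3), 71.8 and 68.2 (P4) and 77.9 and 67.9 (P5) and was not called, at 0.68 ± 0.21 (SE, adjusted p = 0.0276).

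The other members of the role were Hyou1, the nucleotide exchange factor of BiP, with 1.17 ± 0.20, Sdf2l1, a partner of ERdj3, with 1.63 ± 0.18, and the secreted stress proteins Creld2 with 1.20 ± 0.18 and Manf with 1.06 ± 0.15. All 4 were called at adjusted p values from 0.000122 (Sdf2l1) to 0.00166 (Hyou1) in edgeR. Hyou1 lost its call without either P2 library and Creld2 without P2 replicate 1.

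Neither of the 2 lectin chaperones was called in P2. Canx, which encodes the membrane-bound calnexin that binds new glycoproteins (chr11:50107969-50139175 on NCBIM37), was at 165 and 212 CPM (P1), 322 and 321 (P2), 744 and 564 (P3), 444 and 442 (P4) and 406 and 428 (P5). It was the only member with a negative value in P2, -0.27 ± 0.20 (SE, adjusted p = 0.3), and its P2 libraries lay below those of P3, P4 and P5 and above those of P1. Calr, the soluble counterpart calreticulin, was at 172 and 207 CPM (P1), 542 and 604 (P2), 766 and 478 (P3), 474 and 471 (P4) and 458 and 434 (P5), with a change in P2 of 0.53 ± 0.21 (SE, adjusted p = 0.0721) that turned to -0.11 with library totals.

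Among the 5 disulfide isomerases, Txndc5 and Pdia6 rose in P2, and only Txndc5 remained called with library totals. Txndc5 (ERp46), an enzyme that introduces disulfide bonds rapidly, was at 103 and 150.5 CPM (P1), 1102 and 1354 (P2), 133 and 197 (P3), 406 and 329.8 (P4) and 251 and 237 (P5). P2 was above all others, P4 came next, and P1 and P3 were lowest, with a log2 fold change in P2 of 2.56 ± 0.21 (SE, adjusted p = 2.89e-05). Pdia6, which also regulates IRE1, was at 59.8 and 97.1 CPM (P1), 445 and 436 (P2), 246 and 221 (P3), 209 and 209 (P4) and 173 and 175 (P5) with 1.46 ± 0.18 (SE, adjusted p = 0.000261). P4hb, the archetypal isomerase PDI, had the highest level per kilobase of exon of all members in each population, from 394 CPM per kilobase in P4 to 1062 in P2. It was at 1113 and 1147 CPM (P1), 3165 and 2912 (P2), 2521 and 1139 (P3), 1312 and 943 (P4) and 1601 and 1128 (P5), and the P3 replicates spanned much of the range between P1 and P2. Its change in P2 was 1.19 ± 0.31 (SE, adjusted p = 0.0134). Pdia3 (ERp57), the partner of both lectins, and Pdia4 (ERp72) were not called either, at 0.73 ± 0.20 (SE, adjusted p = 0.0152) and 0.24 ± 0.17 (SE, adjusted p = 0.276). Pdia4 turned to -0.42 with library totals.

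Of the 6 genes of ER-associated degradation, 5 rose in P2, and 4 of these remained called with library totals, with Syvn1 as the exception. Herpud1, which assembles the degradation complex, was at 147 and 70.7 CPM (P1), 439 and 377 (P2), 68.2 and 48.3 (P3), 94.3 and 50.9 (P4) and 116 and 54.3 (P5). Replicates differed widely outside P2, where the populations overlapped, and both P2 libraries lay above them. The change in P2 was 2.37 ± 0.32 (SE, adjusted p = 0.000425). Sel1l, the adaptor of the ligase, was at 51.7 and 59.7 CPM (P1), 416 and 344 (P2), 159 and 108 (P3), 118 and 94.0 (P4) and 133 and 118 (P5), and Syvn1 (HRD1), the ubiquitin ligase itself, at 12 and 23.5 CPM (P1), 124 and 115 (P2), 43.9 and 46.0 (P3), 53.0 and 50.7 (P4) and 53.0 and 50.2 (P5). Both rose, by 1.93 ± 0.17 (SE, adjusted p = 4.98e-05) and 1.64 ± 0.19 (SE, adjusted p = 0.000198). Edem1, a lectin that delivers misfolded glycoproteins, was at 109 and 115 CPM (P1), 421 and 373 (P2), 112 and 91.2 (P3), 82.7 and 81.7 (P4) and 95.6 and 75.2 (P5) and rose by 2.07 ± 0.15 (SE, adjusted p = 1.7e-05).

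The Derlins, which form part of the exit channel, differed from each other. Derl3 (chr10:75356143-75358686 on NCBIM37) had 61 and 78 counts in P2, 2 and 22 in P1, and at most 8 in any other library. As CPM these were 0.338 and 3.67 CPM (P1), 18.5 and 17.3 (P2), 0 and 0.664 (P3), 0.735 and 0.297 (P4) and 0.914 and 0.528 (P5). Its log2 fold change of 4.53 ± 0.61 (SE, adjusted p = 0.000422) in P2 was the largest of all members, and its standard error reflects the few counts outside P2. Derl1 was at 51.7 and 46.0 CPM (P1), 91.5 and 92.8 (P2), 79.3 and 76.4 (P3), 69.3 and 69.4 (P4) and 71.6 and 70.5 (P5) in a narrow range, and its change of 0.49 ± 0.13 (SE, adjusted p = 0.0129) was not called and turned to -0.18 with library totals.

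Of the 9 genes of the translocon and signal peptidase, 6 rose in P2. Sec11c, a catalytic subunit of the signal peptidase, was at 31.9 and 44.0 CPM (P1), 275 and 216 (P2), 55.0 and 40.5 (P3), 44.7 and 55.0 (P4) and 46.4 and 55.3 (P5), and rose by 2.41 ± 0.17 (SE, adjusted p = 1.77e-05), the largest change in the role and the only one called with library totals. Its partner subunits Spcs2 and Spcs1 differed by 1.22 ± 0.13 (SE, adjusted p = 0.000132) and 0.52 ± 0.14 (SE, adjusted p = 0.0135). Sec61a1, the pore of the channel, was at 89.9 and 133 CPM (P1), 546 and 528 (P2), 353 and 278 (P3), 248 and 273 (P4) and 234 and 241 (P5) and rose by 1.32 ± 0.18 (SE, adjusted p = 0.000508). Sec61b, a small subunit of the channel, was at 46.5 and 38.0 CPM (P1), 60.2 and 72.1 (P2), 51.8 and 45.2 (P3), 31.7 and 38.0 (P4) and 29.2 and 29.5 (P5) and rose by 0.80 ± 0.15 (SE, adjusted p = 0.0028), a call that was lost without either P2 library and without P4 replicate 1.

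The 4 subunits of the TRAP complex, which assembles from all of them beside the channel, did not move together. Ssr3 and Ssr4 rose in P2, by 1.35 ± 0.15 and 1.38 ± 0.13, at edgeR adjusted p values of 0.000153 and 5.84e-05. Ssr1 and Ssr2 were not called, at 0.51 ± 0.17 and 0.20 ± 0.17, and both turned negative with library totals, at -0.15 and -0.45. Ssr2 was at 60.3 and 65.7 CPM (P1), 132 and 151 (P2), 213 and 157 (P3), 137 and 163 (P4) and 133 and 132 (P5) and Ssr4 at 58.1 and 70.1 CPM (P1), 215 and 216 (P2), 112 and 109.8 (P3), 85.2 and 81.3 (P4) and 80.7 and 76.7 (P5). On the TMM scale P3 was thus highest for Ssr2 and P2 for Ssr4. With library totals 0 members were highest in P3 (0.788% of all genes). On that scale Ssr2 in P3 against P5 was at -0.57, where the median of all genes was -0.94.

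**Figure D3:**
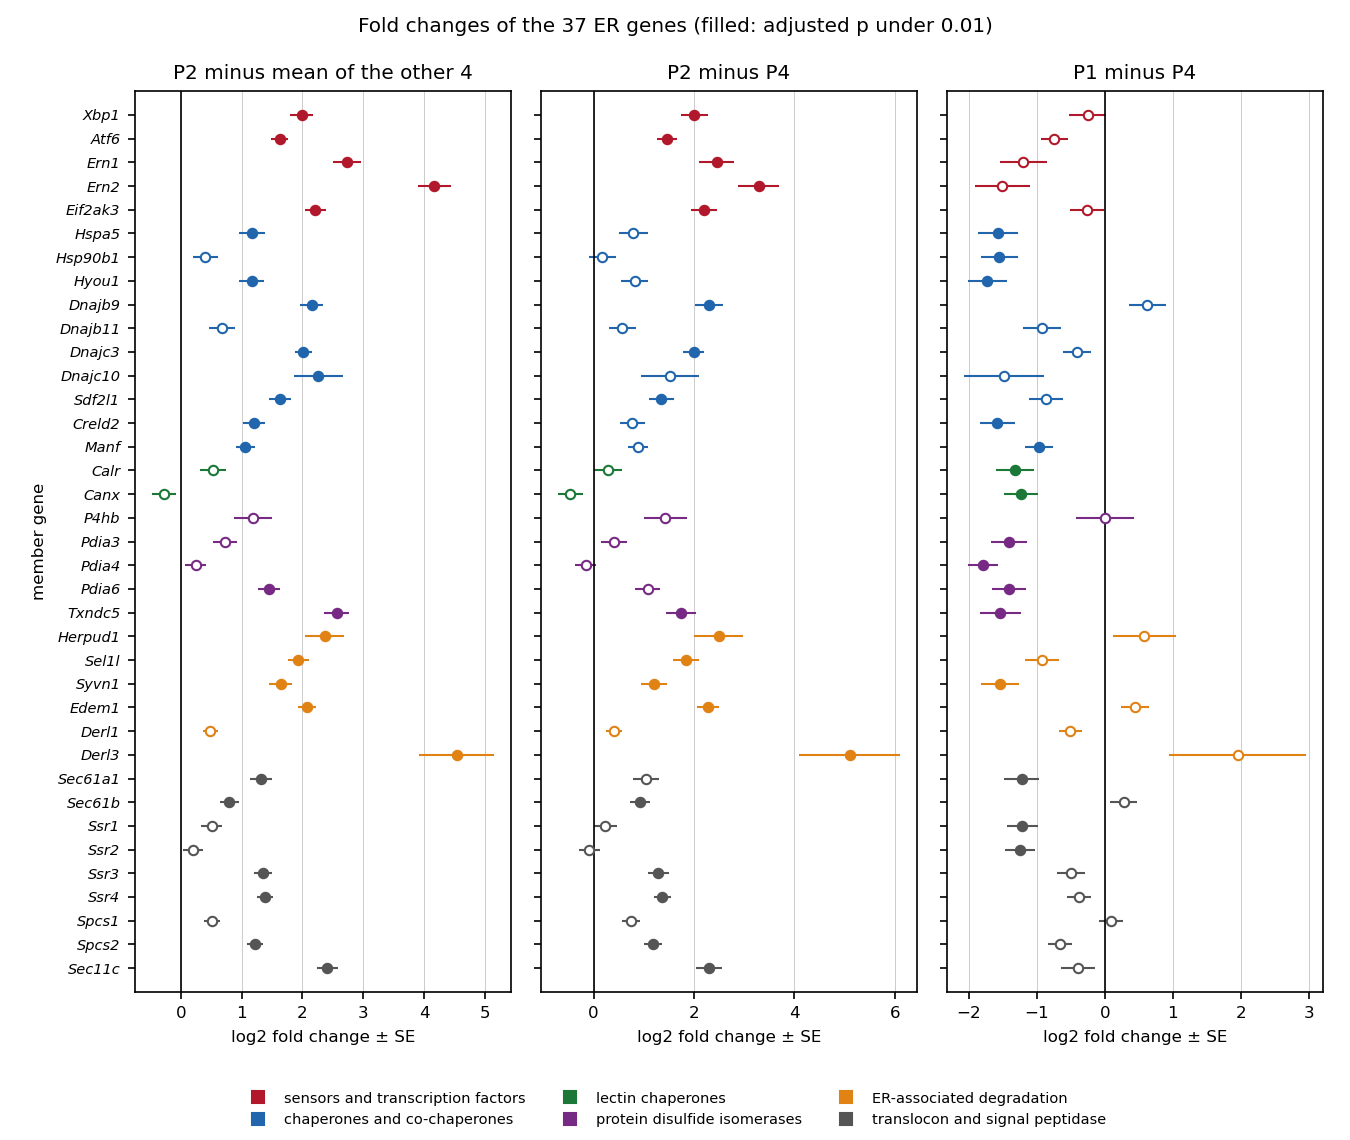
Log2 fold change ± SE of each member in 3 comparisons, P2 against the average of the other 4 populations, P2 against P4, and P1 against P4 (filled points passed an adjusted p under 0.01, open points did not; colours give the role). All 5 sensors and 5 of the 6 genes of degradation are filled in both P2 panels. In the P1 panel 15 members are lower, among them 5 of the 10 chaperones and co-chaperones, both lectins and 4 of the 5 isomerases. With library totals in place of TMM, 17 members lie below 0 in P2 against P4.

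By label, P1, P4 and P2 are low, medium and high OSCAR at low EF1a. Against P1, 32 members were higher in P2 (13.9% of all genes) and 0 lower (15.2% of all genes), and all 37 had a positive value, with edgeR and also with library totals, where 22 were called higher (6.11% of all genes). The median log2 fold change was 1.91. The 5 that did not pass were Canx, P4hb, Derl3, Sec61b and Spcs1. Against P4, 19 members were higher in P2 (8.02% of all genes) and 0 lower (6.3% of all genes), with 0 lower at an unadjusted p under 0.05 and 0 lower with DESeq2. With library totals this comparison gave 1 member higher, Ern2 (2.14% of all genes), and 2 lower, Canx and Ssr2 (20.7% of all genes). The count was 10 without P2 replicate 1, 11 without P2 replicate 2, and 5 without either P4 library, when 400, 333, 175 and 138 genes of the whole table were higher. In P1 against P4, 15 members were lower (9.44% of all genes) and 0 higher (14% of all genes), with 1 higher at an unadjusted p under 0.05 and 0 with DESeq2. With library totals 20 were lower (11.7% of all genes). On the TMM scale the calls in P1 against P4 were lost without either P4 library, as were those of the whole table. Without either P1 library fewer members were called, and fewer genes of the whole table. Each of these fits leaves 1 library in a population.

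The 2 comparisons share the P4 libraries, so their values are given side by side. P2 was above P4, and P1 not called below it, for 17 members: Xbp1, Atf6, Ern1, Ern2, Eif2ak3, Dnajb9, Dnajc3, Sdf2l1, Herpud1, Sel1l, Edem1, Derl3, Sec61b, Ssr3, Ssr4, Spcs2 and Sec11c. All 5 sensors and 4 of the 6 genes of degradation were in this set. P1 was below P4, and P2 not called above it, for 13 members: Hspa5, Hsp90b1, Hyou1, Creld2, Manf, Calr, Canx, Pdia3, Pdia4, Pdia6, Sec61a1, Ssr1 and Ssr2. Both lectin chaperones and 3 of the 5 isomerases were among them. Txndc5 and Syvn1 passed both, and Dnajb11, Dnajc10, P4hb, Derl1 and Spcs1 passed neither.

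In values, Edem1 differed by 2.27 ± 0.22 (SE, adjusted p = 0.000458) between P2 and P4 and by 0.44 ± 0.21 (SE, adjusted p = 0.114) between P1 and P4. For Xbp1 these were 2.01 ± 0.28 (SE, adjusted p = 0.00128) and -0.25 ± 0.27 (SE, adjusted p = 0.466). Pdia4 showed the reverse arrangement, with -0.16 ± 0.21 (SE, adjusted p = 0.625) and -1.79 ± 0.22 (SE, adjusted p = 0.000951). Hspa5 was likewise not called in the first, 0.79 ± 0.29 (SE, adjusted p = 0.0682), and lower in the second, -1.57 ± 0.29 (SE, adjusted p = 0.0034). With library totals P2 against P4 was at 1.13 (Edem1), 0.87 (Xbp1), -1.30 (Pdia4) and -0.35 (Hspa5), and none of these was called. Missing the threshold in one comparison and passing it in the other does not show that the 2 differ, and that difference was not tested. Of the 9 members with the ER stress element, Hspa5, Hsp90b1, Creld2, Calr, Canx and Pdia6 were in the second set and Dnajc3 and Derl3 in the first. Syvn1 passed both comparisons and is in neither set. Among all 37 members the second set held 13 and the first 17, and promoter windows were matched for 29 of the 37. Whether the element goes with either set was not tested.

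P1 also differed in the markers named above, with the highest levels of enterocyte and leukocyte genes. Leaving out mitochondrial genes before scaling moved the median of all genes in P1 against P4 from -0.06 to -0.26, and 21 members were then lower. Of all 13887 genes then tested, 3301 were called and 1548 of these were higher. The main fit called 3219 of 13708, with 1925 higher.

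The mix of the members is free of the scale between libraries, because each library is compared with its own sum over the 37 genes. Sensors and transcription factors made up 11.9% and 11.3% of that sum in P2, and 4.31% to 6.24% in the other 8 libraries. Lectin chaperones made up 5.88% and 6.54% in P2 and 9.48% to 15.2% elsewhere. Both P2 libraries lay outside the range of the others in both roles, above in the first and below in the second. Genes of degradation made up 10.3% and 9.33% in P2 and 10.4% and 8.03% in P1, against 4.60% to 6.93% in P3, P4 and P5. Chaperones and co-chaperones made up 16.1% and 16.7% in P1, 19.8% and 18.9% in P2 and 22.2% to 24.8% elsewhere. The isomerases, which include the abundant P4hb, ranged from 32.4% to 41.8%, and the translocon and signal peptidase from 14.1% to 17.5%, with P2 within the range of the others for both. Within the sum, Ern2 alone rose from at most 0.768% outside P2 to 3.45% and 2.62% in P2, while Hsp90b1 was 4.22% and 4.02% in P2, 4.61% and 4.90% in P1, and 7.58% to 9.90% in P3, P4 and P5.

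**Figure D4:**
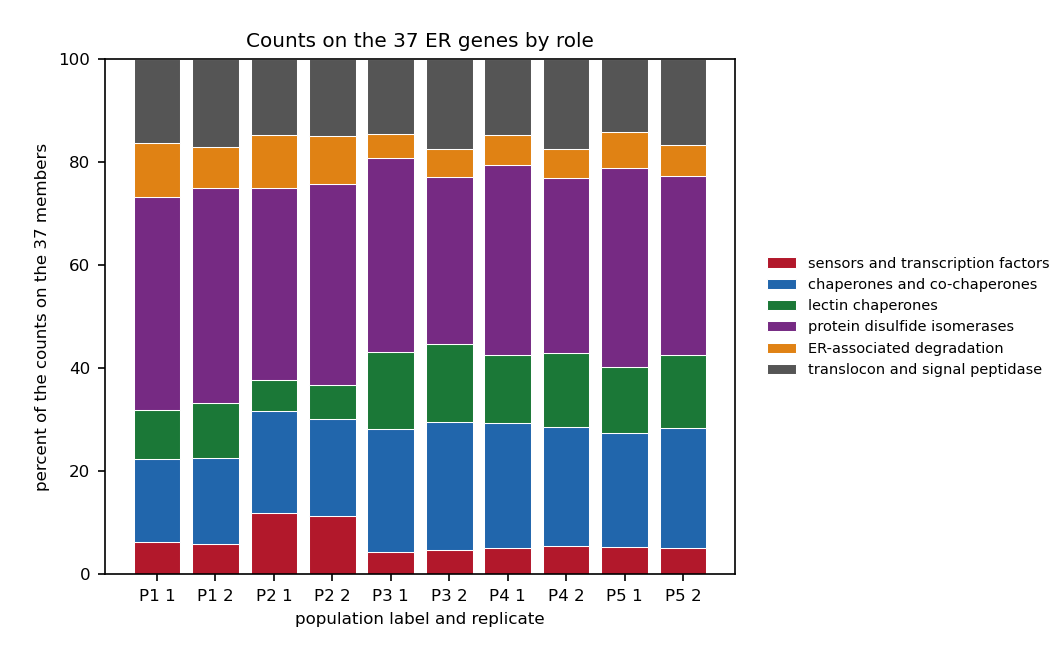
Stacked bars of the percent of counts on the 37 members that fell on each of 6 roles, in each library. The sensors and transcription factors take 11.9% and 11.3% in the 2 P2 libraries and 4.31% to 6.24% in the other 8, and the lectin chaperones are narrowest in P2.

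The EF1a level was compared at low and at medium OSCAR. Between P3 and P1, both OSCARlow, 18 members were higher in P3 (8.02% of all genes) and 0 lower (7.59% of all genes), with 0 lower at an unadjusted p under 0.05 in edgeR and 0 lower with DESeq2. They included Hsp90b1, at 2.21 ± 0.28 (SE, adjusted p = 0.00156), Hyou1, at 2.20 ± 0.29 (SE, adjusted p = 0.00165), Pdia4, at 2.09 ± 0.22 (SE, adjusted p = 0.00138), and Canx, at 1.80 ± 0.25 (SE, adjusted p = 0.00182). Of the sensors, only Atf6 was called, at 0.93 ± 0.20 (SE, adjusted p = 0.00752). This set rests on the spread shared over 5 populations: with only P3 and P1 in the model, 0 members were called, as were 0 without P1 replicate 1, and in both cases 0 genes of the whole table were called. Without P1 replicate 2, 4 members and 156 genes of the whole table were higher. With library totals 3 members were higher (0.708% of all genes), Hsp90b1, Hyou1 and Pdia4.

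Between P5 and P4, both OSCARmed, 0 members were called, 0 at an unadjusted p under 0.05 and 0 with DESeq2, and 0% of all genes were called. The median of the members was -0.08, and the values ran from -0.59 ± 0.30 for Txndc5 to 0.50 ± 1.05 for Derl3. P3 against P5, low against medium OSCAR at high EF1a, gave 0 members as well, out of 0% of all genes, with 8 higher (5.65% of all genes) and 1 lower (5.93% of all genes) at an unadjusted p under 0.05 and 0 with DESeq2. The 1 lower was Ern2, at -1.34 ± 0.42 (SE, adjusted p = 0.389). All 37 members lay below 0 in this comparison with library totals, where the median of all genes was -0.94.

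P3 against the average of the other 4, the comparison that bears on the labels, gave 0 members (2.14% of all genes), with 12 higher (17.5% of all genes) and 7 lower (13.3% of all genes) at an unadjusted p under 0.05 in edgeR, and 4 higher (4.62% of all genes) and 2 lower (4.21% of all genes) with DESeq2. Canx stood at 1.01 ± 0.18 (SE, adjusted p = 0.0119), Hsp90b1 at 1.01 ± 0.20 (SE, adjusted p = 0.0152) and Ern2 at -2.04 ± 0.38 (SE, adjusted p = 0.0128). The libraries labelled P3 thus held no member above the threshold in either direction. Leaving them out raised the count of members higher in P2 against the rest to 32. In that fit 2478 of all 13585 genes were higher, against 2240 of 13708 with them included.

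The difference between low and medium OSCAR was compared between EF1a levels as (P3 minus P5) minus (P1 minus P4). Of the members 1 was called (0.817% of all genes), Pdia4 (chr6:47746141-47763511 on NCBIM37), whose level was 27.0 and 40.0 CPM (P1), 110.4 and 97.9 (P2), 150.2 and 136 (P3), 117 and 116 (P4) and 110.3 and 104 (P5). Its difference was 2.21 ± 0.31 (SE, adjusted p = 0.00884). Hyou1 and Hsp90b1 had larger differences that just missed the threshold, at 2.35 ± 0.40 (SE, adjusted p = 0.0109) and 2.23 ± 0.38 (SE, adjusted p = 0.0109). At an unadjusted p under 0.05, 26 members were positive (15.6% of all genes) and 0 negative, and DESeq2 called 15 positive (5.39% of all genes). The call of Pdia4 was lost whenever any 1 of the 10 libraries was left out, and with library totals, at an edgeR adjusted p of 0.037.

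The wider pathway was read from 99 other genes of the ER and of transport to the Golgi in 6 lists, 97 of which passed the filter. The Paneth marker Nupr1 and the goblet marker Agr2 are also on these lists. In P2 against the average of the others, 55 of them were higher (16.3% of all genes) and 2 lower (10.7% of all genes), and in P2 against P4 38 were higher (8.02% of all genes) and 0 lower (6.3% of all genes). With library totals these counts were 20 higher and 3 lower (7.97% and 17.8% of all genes), and 8 higher and 4 lower (2.14% and 20.7% of all genes). Of 14 signal recognition and other translocon genes 10 rose, among them Srpr, the receptor subunit that docks ribosomes, at 2.28 ± 0.14 (SE, adjusted p = 1.12e-05), and Tram1, a translocon protein, at 2.21 ± 0.16 (SE, adjusted p = 1.7e-05). Of 19 other folding enzymes 13 rose, among them Fkbp11, a prolyl isomerase, at 4.18 ± 0.48 (SE, adjusted p = 0.000171), and Qsox1, a sulfhydryl oxidase, at 3.74 ± 0.27 (SE, adjusted p = 1.77e-05). Of 14 other degradation genes 9 rose, among them Edem2 at 2.82 ± 0.18 (SE, adjusted p = 1.25e-05) and Edem3 at 2.20 ± 0.16 (SE, adjusted p = 1.77e-05). Of 15 genes of oligosaccharide transfer and glycan trimming 6 rose, among them Uggt1, which tests glycoproteins for correct folding, at 1.75 ± 0.23 (SE, adjusted p = 0.000359). In P1 against P4, 10 of these 15 were lower and 0 higher, the largest share lower of any of the 6 lists (9.44% of all genes were lower), and 11 were lower with library totals. With library totals the counts higher in P2 were 4 signal recognition and translocon genes, 5 folding enzymes, 2 degradation genes and 1 gene of glycan handling, and each gene given with a fold change in this paragraph was among them.

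Other regulators of the stress response were mixed across populations. Of 15 in the list, 9 rose in P2, and 6 with library totals. Bhlha15 (MIST1), a factor of professional secretory cells, was at 5.58 and 24.4 CPM (P1), 357 and 290.0 (P2), 0 and 1.77 (P3), 6.49 and 4.45 (P4) and 10.1 and 3.49 (P5) and rose by 5.99 ± 0.46 (SE, adjusted p = 2.41e-05). Atf4, the factor translated when PERK is active, was at 283 and 295 CPM (P1), 434 and 441 (P2), 182 and 168 (P3), 181 and 156 (P4) and 183 and 159 (P5) and rose by 1.16 ± 0.15 (SE, adjusted p = 0.000326), but with library totals it was not called, at 0.50 (edgeR adjusted p = 0.121). Ddit3 (CHOP), a later factor of the same branch, was at 38.2 and 35.4 CPM (P1), 22.5 and 24.7 (P2), 3.70 and 7.97 (P3), 8.57 and 6.23 (P4) and 8.91 and 8.03 (P5), so that P1 and not P2 was highest. For this gene P2 against P1 was not called, at -0.64 ± 0.32 (SE, edgeR adjusted p = 0.128). Its change in P2 was 1.11 ± 0.25 (SE, adjusted p = 0.00595), and in P1 against P4 it was 2.31 ± 0.33 (SE, adjusted p = 0.00137). With library totals neither was called, at 0.42 and 1.62 (edgeR adjusted p = 0.412 and 0.0318). Of the 20 genes of transport to the Golgi, 8 rose in P2 and 2 fell, a share near that of all genes that fell. With library totals 2 rose and 3 fell (7.97% and 17.8% of all genes). Kdelr3, a receptor that returns ER proteins, rose by 4.01 ± 0.20 (SE, adjusted p = 5.3e-06). Sec23a, a coat protein of the transport vesicle, was at 694 and 551 CPM (P1), 36.5 and 82.5 (P2), 203 and 131 (P3), 105 and 83.4 (P4) and 134 and 103 (P5) and fell in P2 against the average of the others, at -1.63 ± 0.34 (SE, adjusted p = 0.00451). Its P1 libraries were far above the rest, and against P4 alone P2 was not called, at -0.65 ± 0.39 (SE, adjusted p = 0.241), though it was with library totals, at -1.78 (edgeR adjusted p = 0.00541).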

How the data were processed

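The 10 deposited tables hold counts of reads per gene, without normalization. Per the methods and the submitters' processing notes, the authors mapped reads with TopHat2 2.1.0 to mm9 and counted them on exons with HTSeq 0.11.2, ignoring strand and leaving out multiply aligned reads. The annotation used for counting is not given in the sources used here. Exons of 8 members overlap those of another gene, by at most 17.9% of their length (Spcs1, with Glt8d1) and by 15.7% in Hsp90b1, so reads of such pairs cannot be told apart. Library totals were 3857612 to 6485823, and 3 counts equal 4.63e-05% to 7.78e-05% of a library, which covers counting error only.

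Rows that name no gene held 18.7% to 44.3% of all counts in a table and were left out of totals and tests. Samples were grouped by title and genotype label, and 183 rRNA names were removed. GENCODE M1 (NCBIM37), which held 33643 of 35006 names, gave positions and lengths. Genes were filtered with filterByExpr, scaled by TMM and fitted over all 10 libraries with edgeR 4.0.16 (R 4.3.3). The quasi-likelihood test was adjusted by Benjamini-Hochberg over all 13708 genes, and calls were made at an adjusted p under 0.01. Standard errors come from the F statistics. Alternatives were DESeq2 1.42.0, other scalings, thresholds and filters, a replicate block and leaving out each library. The members and lists were chosen with earlier results of these data known. Any member may be named, and of each other pathway list the 3 genes with the largest change among those called in P2 against the others, plus Atf4, Ddit3 and Bhlha15. Of each marker list the first 3 may be named, and Igj, Nupr1, Agr2, Clca1 and Clca3 were named after their values had been seen where no rule names them. Of 101 pathway genes 99 are in the files. Library totals as the scale and leaving out P3 were added after the values had been seen.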

Additional observations from a re-analysis of the deposited data

Results flagged for a closer look

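Pdia4, which encodes the disulfide isomerase ERp72, is given here because its difference between low and medium OSCAR itself differed between the EF1a levels, by 2.21 on the log2 scale (edgeR's quasi-likelihood test, adjusted p = 0.00884). Hyou1 and Hsp90b1 had larger differences, 2.35 ± 0.40 (SE, adjusted p = 0.0109) and 2.23 ± 0.38 (SE, adjusted p = 0.0109), that missed the threshold. The number of members called was 15 with DESeq2, 6 with a replicate block, 4 with DESeq2 size factors, 6 without mitochondrial genes and 0 with library totals, where Pdia4 had an adjusted p of 0.037. In the same order, 1934, 627, 362, 375 and 79 genes of the whole table were called, against 112 in the main fit. At low EF1a it was lower in P1 than in P4, by -1.79 ± 0.22 (SE, adjusted p = 0.000951), and at high EF1a P3 and P5 differed by 0.42 ± 0.21 (SE, adjusted p = 0.474). With 2 libraries in each population, no adjusted p under 0.01 was left when any 1 library was left out, and the libraries labelled P3 carry the label conflict and the high mitochondrial share given above, whose part in the difference was not tested.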

How the results depend on the processing

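Counts of members called are given for each comparison. With library totals in place of TMM, an alternative chosen after seeing the data, 13 members were called in P2 against the average of the others, 3 in P2 against P4, 3 in P3 against P1 and 0 in the interaction of OSCAR and EF1a. Over all 13708 genes the calls were then 3533, 3125, 1169 and 79. On that scale 7 members turned negative in P2 against the average of the others, namely Hsp90b1 (-0.24), Calr (-0.11), Pdia4 (-0.42), Derl1 (-0.18), Ssr1 (-0.15), Ssr2 (-0.45) and Spcs1 (-0.15), none of which had been called. At an adjusted p under 0.05, 8 members were called in P3 against the average of the others, 23 in P1 against P4 and 18 in the interaction. The same threshold called 1759, 5775 and 2375 of all 13708 genes. Without a filter on low counts 7 members were called in P3 against the others, 1 in P3 against P5 and 14 in the interaction. Of all 21998 genes then tested, 1728, 303 and 2299 were called. DESeq2's test called 6 members in P3 against the others and 15 in the interaction, and 1212 and 1934 genes of the whole table. The interaction gave 4 members with DESeq2 size factors, 6 without mitochondrial genes and 5 without the 50 most abundant genes. In these settings 362, 375 and 381 genes of the whole table were called. With only the populations compared in the model, P3 against P1 gave 0 members, and 0 genes of the whole table were called. The cause of these changes was not tested.

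With a replicate block the interaction gave 6 members, and no other count of members moved by more than 1. The interaction then held 627 genes of the whole table, against 112 in the main fit. Samples with the same number had deviations from their population means that correlated at -0.04 to 0.52 (median 0.23), and the sources do not say that numbers mark shared animals.

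Leaving out each library in turn gave 5 to 20 members in P2 against P4, 0 to 20 in P1 against P4, 0 to 17 in P3 against P1, 0 to 1 in P3 against the average of the others and 0 to 0 in the interaction. A population left with 1 library is assumed to vary like the others. Calls over the whole table also rose and fell widely between these fits in P2 against P4, P1 against P4 and P3 against P1. The ranges therefore do not show a change particular to the members. The counts over all populations, for P2 against P1 and for P5 against P4 stayed within 1.5 times their value under all alternatives run. Depth limits Derl3, which had at most 22 counts outside P2.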

Other observations

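On the TMM scale, 30 of the 37 members had their highest mean level in P2 (30.6% of all genes tested) and the other 7 in P3 (18.7%), and 29 had their lowest in P1 (29.7%). With library totals 20 were highest in P2 (13.4%) and 17 in P4 (44.4%), and 29 were again lowest in P1 (21.2%). Per kilobase of exon, Dnajb9 was at 11.3 CPM in P1 and at 6.94 to 7.39 in the other populations but P2. Igj, the joining chain of secreted antibodies, had 65 and 108 counts in the P1 libraries, at most 12 in any of P3, P4 and P5, and none in either P2 library.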
